A study of Schizosaccharomyces pombe with 7 samples.

Results

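The whole-cell extract channel of a fission yeast (Schizosaccharomyces pombe) ChIP-chip study was read here as a measurement of the strains' DNA. Whole-cell extract is the sheared DNA of fixed cells before immunoprecipitation, and it was labelled with Cy3 on all 7 of the 7 arrays. All 41551 probes that the scanner files mark as non-control probes were taken, and the ChIP channel (Cy5) entered no Cy3 value. Each value is log2 of the background-subtracted Cy3 signal of a 60-base probe minus the median of its array. It is called the Cy3 level, and a level under -8 was set to -8. Missing DNA was defined as 3 or more neighbouring probes at which some arrays lay at least 4 below all the others, which is 16-fold.

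There were 3 arrays of WT cells (series 1, 2 and 3), 2 of fft3∆ cells (series 2 and 3), 1 of UV21 cells (series 1) and 1 of cells labelled WT in which the ChIP was directed at Fft3-GFP. The labels name UV21 without giving its nature, and they give no further alleles, mating types or markers for any strain. The antibody was against H3K9me2 on 6 arrays and against GFP on the Fft3-GFP array. Cultures grew at 30 °C in YEA, a rich medium, fixation was by 3% paraformaldehyde, and DNA was sheared to 500 to 1000 bp. The Fft3-GFP cells alone spent 6 h at 18 °C first and were cross-linked a second time with dimethyl adipimidate (10 mM), so that strain and treatment cannot be told apart on that array. The file headers also name 2 scanner models. Fft3-GFP, WT series 3 and fft3∆ series 3 were read on a G2600D in 2 passes. WT series 1, UV21, WT series 2 and fft3∆ series 2 were read on a G2505C in 1 pass. Nothing states that arrays of a group came from separate cultures, so p-values measure the spread between these arrays only. Precision is limited by how few arrays there are.

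Fft3 is a chromatin remodeller of the Fun30 family, whose members use ATP to move or exchange nucleosomes, and it is known for its part in keeping silent and active chromatin apart at centromeres and subtelomeres. Fission yeast centromeres have a central domain, where the kinetochore forms, flanked by tRNA genes and by outer repeats that are packed into heterochromatin. Subtelomeres and the silent mating-type cassettes carry the same kind of chromatin. Ribosomal DNA repeats lie at both ends of chromosome 3, mitochondrial DNA is present in many copies per cell, and the pNSU contigs are plasmid clones of subtelomeric DNA. A whole-cell extract level reflects how much of a sequence was recovered and amplified, and more copies per cell and better recovery of the same copies cannot be told apart.

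WT series 3 stood apart from the other arrays. On that array 852 probes (2.05%) were saturated, which put a ceiling at a Cy3 level of 1.56, and its levels correlated with those of the other arrays at 0.598 to 0.718 across probes. WT and UV21 of series 1, which shared a slide, correlated at 0.959, and WT and fft3∆ of series 2 at 0.939. Over probes, the median ratio of Cy3 signal to local background ran from 19.7 to 219.2. Between 1 and 35 probes an array were not well above background. Results that rest on WT series 3 are given with and without it.

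The fft3 gene checks the genotype labels. Its coding sequence is 1 exon of 2769 bases at chr1:2098281-2101049 on the minus strand of the assembly ASM294v3. The array's own positions come from a build that is not given in the sources used here, and genes were placed by matching probe signal to base composition to within about 300 bp. The start and end of the coding sequence are shown because every probe placed between them was low in fft3∆. They come from the RefSeq sequence of ASM294v3, with the start and stop codons in capitals.
fft3 start: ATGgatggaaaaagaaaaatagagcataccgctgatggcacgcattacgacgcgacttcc
fft3 end: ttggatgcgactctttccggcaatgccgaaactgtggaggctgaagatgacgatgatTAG

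Over the 10 probes of the coding sequence, the mean Cy3 level was -7.76 on fft3∆ series 2 and -7.11 on fft3∆ series 3. It was -0.46, -1.15 and -0.37 on WT series 1, 2 and 3, -0.55 on UV21 and -0.52 on Fft3-GFP. Both fft3∆ arrays lay far below all other arrays, without overlap. On fft3∆ series 2 the 10 probes formed 1 stretch from 2099101 to 2101860 of array chromosome 1, a span of 2760 bp, and the other 5 WT, UV21 and Fft3-GFP arrays had at least 63.8 times as much signal there. The fft3∆ series 3 array had the same stretch in 2 pieces of 3 and 6 probes (at least 117.1-fold and 115.8-fold), separated by 1 probe at a level of -3.42. The 2 remaining probes placed in fft3, outside the coding sequence, were at 0.82 to 0.89 on fft3∆ series 2 and at 0.32 to 0.49 on fft3∆ series 3. The 6 probes on the left had means of -0.61 to -0.27 over the 7 arrays. The 6 on the right had means of -0.50 to -0.07 on 6 arrays and -1.65 on WT series 3, so the loss ended at both sides. Moved to ASM294v3, the missing probes run from 2098301 to 2101060 and thus cover the coding sequence to within 1 probe.

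Missing stretches were rare. They held 43 of the 41551 probes (0.103% of all probes) and lay at 3 places: fft3, a block with cao1 and cbm1 on chromosome 1, and a block of the mat contig, which carries the mating-type cassettes. Counted by array there were 14 stretches, of which WT series 1, UV21 and fft3∆ series 2 had 3 each and fft3∆ series 3 had 5. WT series 2, WT series 3 and Fft3-GFP had none. Among the genes overlapped were 3 protein-coding genes (fft3, cao1 and cbm1) and 8 long non-coding RNAs. The lncRNAs SPNCRNA.2939 and SPNCRNA.2940 overlap fft3, and SPNCRNA.3325, SPNCRNA.3326, SPNCRNA.3327, SPNCRNA.861, SPNCRNA.862 and SPNCRNA.863 lie with cao1 and cbm1.

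**Figure D1:**
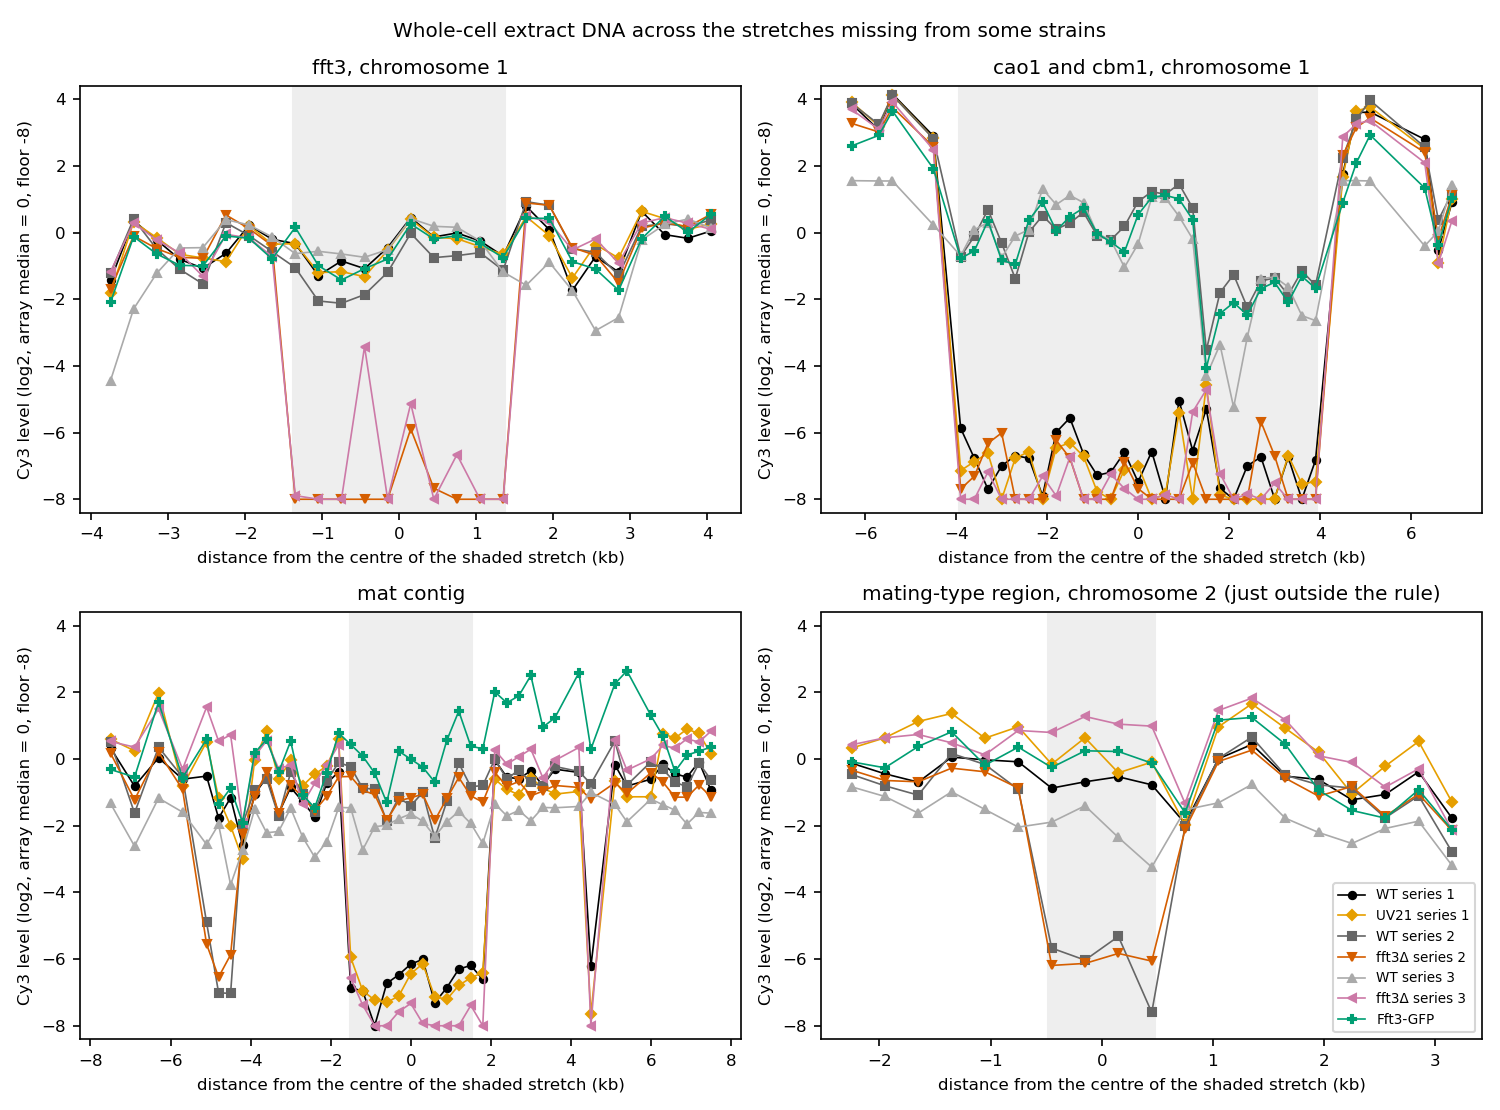
Cy3 level of each probe on the 7 arrays against the distance (kb) from the centre of each missing stretch, which is shaded; points are single probes and lines join the probes of 1 array. Only the 2 fft3∆ arrays fall at fft3, 4 arrays fall at cao1 and cbm1, 3 fall on the mat contig, and WT and fft3∆ of series 2 fall at the 4 chromosome 2 probes just outside the rule.

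The second place divided the arrays differently from their genotype labels. It holds cao1 (SPAC2E1P3.04), which encodes a copper amine oxidase, and cbm1 (SPAC2E1P3.05C). Over its 18 probes, from 2932501 to 2937660 on array chromosome 1, the mean Cy3 level was -6.75 on WT series 1, -7.14 on UV21, -7.43 on fft3∆ series 2 and -7.63 on fft3∆ series 3. It was 0.28 on WT series 2, 0.22 on WT series 3 and 0.17 on Fft3-GFP. The second group of arrays had at least 116.8 times the signal of the first, and no probe of one group reached the other: the highest low probe was at -5.04 and the lowest present probe at -1.38. A WT array was thus among those without this DNA, and in series 2 and in series 3 the WT array had it while the fft3∆ array did not.

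The loss went on to the right with a smaller margin. At 4 probes from 2939401 to 2940360 the same 4 arrays had means of -7.88 to -7.39, and WT series 2, WT series 3 and Fft3-GFP had -1.49, -2.02 and -1.64, at least 33.1-fold more. The 5 probes in between had means of -7.53 to -6.94 on the 4 arrays and of -2.06, -3.48 and -2.55 on WT series 2, WT series 3 and Fft3-GFP. The largest gap between neighbouring arrays, sorted by level, was 2.71 to 3.99 at these 5 probes, under the rule. At 2938201, 2938801 and 2939101 it was 3.86 to 3.99 and parted the same 4 arrays from the rest. At 2937901 it set only fft3∆ series 2 apart, and UV21 (-4.57) lay near WT series 3 (-4.3). At 2938501 WT series 3 (-5.24) fell on the low side. As genes, cao1 (11 probes) was at 0.01, 0.32 and 0.03 and cbm1 (4 probes) at 0.88, 0.18 and 0.54 on WT series 2, WT series 3 and Fft3-GFP. On the other 4 arrays cao1 lay between -7.67 and -6.86 and cbm1 between -7.88 and -7.15.

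Long terminal repeats, which bound Tf retrotransposons and can also remain without them, stand at both sides of this block in ASM294v3, all on the minus strand. The element Tf2-3 overlaps the window from 2928001 to 2930000 of array chromosome 1, left of the block. Whether each repeat stands alone or ends an element was not examined. The left one is at chr1:2931372-2931720 (349 bases), and right of the block there is one at chr1:2939937-2940229 (293 bases) and another at chr1:2941944-2942286 (343 bases). Moved to ASM294v3, the missing probes run from 2931701, at the inner end of the left repeat, to 2939560, short of the nearer right repeat, with a placement error of about 300 bp. The nearer right repeat shared 255 of 284 aligned bases (89.8%) with the left one, and the farther right repeat 342 of 343 (99.7%). The first 120 bases of the left repeat are shown because the nearer right repeat begins with the same 120 bases; no base is set in capitals.
left repeat: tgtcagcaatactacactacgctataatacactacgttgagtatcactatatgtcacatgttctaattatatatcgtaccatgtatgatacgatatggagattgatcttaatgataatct
Whether the repeats took part in the loss was not tested.

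The third place was on the mat contig, whose build position is not given. Over 11 probes from 25201 to 28260 of the contig, the mean Cy3 level was -6.71 on WT series 1, -6.80 on UV21 and -7.65 on fft3∆ series 3. It was -1.09 on WT series 2, -1.14 on fft3∆ series 2, -1.92 on WT series 3 and 0.05 on Fft3-GFP. The last 4 arrays had at least 50.7 times the signal of the first 3. The next probe, 28501, followed the same division with a gap of 3.88, just under the rule. The lone probe at 31201 did so as well, at -6.22, -7.65 and -8 against -1.21 to 0.30. The 7 probes between these, from 28801 to 30960, were present on every array, and Fft3-GFP was highest there at a mean of 1.84 against -1.54 to 0.04.

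A different division was seen at 2 groups of mating-type probes that just missed the rule. They were picked out on their values and get no test. At 4 probes from 2133001 to 2133960 of array chromosome 2, WT series 2 had a mean of -6.15 and fft3∆ series 2 of -6.05. WT series 3 lay in between at -2.22, and WT series 1, UV21, fft3∆ series 3 and Fft3-GFP were at -0.71, 0.00, 1.03 and 0.03. WT series 3 was also low beside these probes, at -1.35 over 6 probes on the left and -1.34 over 4 on the right. The 4 probes from 2133001 were placed at chr2:2131342-2132301 of ASM294v3, left of mat3-Mc (chr2:2132849-2133394), a gene of the silent M cassette mat3. At 3 probes of the mat contig, from 21601 to 22260, the order was the same: WT series 2 was at -6.31, fft3∆ series 2 at -5.99 and WT series 3 at -2.76, against -1.15, -0.88, 0.94 and -0.54 on WT series 1, UV21, fft3∆ series 3 and Fft3-GFP. In series 2 the WT and fft3∆ arrays therefore shared their mating-type pattern, while in series 3 fft3∆ lacked the 11 probes that WT had.

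The 2 thresholds left few probes in doubt. Outside the stretches, 10 probes had a gap of 4 or more, 6 of them low on WT series 3 alone. A further 80 probes had a gap between 3 and 4, 70 of them low on WT series 3 alone. Without WT series 3 the rule gave 20 stretches on the 6 remaining arrays at 4 places, the fourth being the 4 chromosome 2 probes beside mat3-Mc in WT and fft3∆ of series 2.

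The ChIP channel, which took no part in the choice of the stretches, was low on the same arrays. At the 10 fft3 probes the Cy5 level (scaled as Cy3) was -5.12 and -5.67 on the 2 fft3∆ arrays and -1.52 to -0.42 on the other 5. At the 18 cao1 and cbm1 probes it was -3.48, -5.52, -5.95 and -6.46 on WT series 1, UV21, fft3∆ series 2 and fft3∆ series 3, and 0.32, 0.07 and 0.37 on WT series 2, WT series 3 and Fft3-GFP. At the 11 mat probes it was -2.20 on WT series 1, -5.41 on UV21 and -6.13 on fft3∆ series 3. There it reached 5.13 on WT series 2, 4.74 on fft3∆ series 2 and 4.86 on WT series 3, the H3K9me2 arrays with this DNA, and 0.44 on Fft3-GFP. The means of the arrays with and without a stretch did not overlap at any of these places in Cy5, and WT series 1 was the highest of the low arrays at cao1 and cbm1 and at mat.

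Differences between groups were then tested over the genome with limma (7 arrays, 4 groups, adjusted over all features). Among 6277 windows of 2 kb, 0 were higher and 2 were lower in fft3∆ than in WT at an adjusted p under 0.05, which is 0.0319% of the windows. Both lay at fft3. The window from 2100001 was at -0.31, -0.89 and -0.27 on WT series 1, 2 and 3 and at -7.65 and -6.75 on fft3∆, a difference of -6.71 (SE 0.31, adjusted p 0.00116). The window from 2098001, which also touches SPAC25A8.03C, differed by -3.49 (SE 0.23, adjusted p 0.00499). At an unadjusted p under 0.05 there were 106 higher and 16 lower windows. The cao1 and cbm1 block, which WT series 1 lacks, was not called: without that array 5 windows were lower, 4 of them in this block.

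The gene fit called 1 of 4952 genes (0.0202% of genes), fft3 itself, at -5.54 (SE 0.21, adjusted p 3.79e-05 by limma). The second smallest adjusted p was 0.891, and 69 genes were higher and 32 lower at an unadjusted p under 0.05. The other Fun30 family genes showed no such loss. The gene fft1 was at -0.20, -0.35 and -0.31 on WT and -0.15 and -0.31 on fft3∆, and fft2 at 0.50, 0.68 and 0.57 on WT and 0.66 and 0.54 on fft3∆. Of the Fun30 list 3 of 3 genes were measured and 1 was lower, with a median difference of 0.02.

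Nutritional marker genes, which are often mutated or deleted in laboratory strains, all gave signal as gene means on every array. A DNA level does not show a point mutation, and a mean over probes can hide a partial loss. Of 10 listed and 10 measured, 0 passed the test, with a median difference of -0.17. The one that varied most was ura4, which encodes an enzyme of uracil synthesis and is used to mark deletions. Its 3 probes had a mean of -1.40 on WT series 2, -1.23 on fft3∆ series 2 and -1.80 on WT series 3. They were at -0.40 on WT series 1, 0.44 on UV21, 0.30 on fft3∆ series 3 and 0.59 on Fft3-GFP. The 3 lowest arrays were also the 3 lowest beside mat3-Mc, but WT series 3 was the lowest of all here and in between there. None was near the level of a missing stretch, and the fft3∆ and WT arrays overlapped.

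Of the other lists, 0 genes passed the test, while the median over all genes was a difference of 0.00 to 2 decimals. Of the 15 genes of heterochromatin formation, 15 were measured and their median difference was -0.05. Of the 16 wtf genes, which are meiotic drivers, 16 were measured and the median difference was 0.12. Of 8 mating-type cassette genes 2 were measured, mat1-Mc and mat3-Mc, both of which encode the M-specific factor. For mat1-Mc the level was 0.15, 0.40 and -1.19 on WT, -0.03 and 1.55 on fft3∆, 1.31 on UV21 and 0.99 on Fft3-GFP, so WT and fft3∆ overlapped. The cassettes share sequence, so a probe may read more than 1 of them. The 10 mitochondrial genes have no place on the nuclear assembly's arms and are described by contig below.

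Tf2 retrotransposons were limited by the ceiling of WT series 3. Of 13 listed, 11 were measured and 0 passed the test. Their median level was 3.54, 3.32 and 1.55 on WT series 1, 2 and 3, 3.21 and 3.25 on fft3∆, 3.64 on UV21 and 2.48 on Fft3-GFP. The median fft3∆ minus WT difference was 0.38 over all arrays, while within series 2 it was -0.15 and within series 3, where WT was at its ceiling, 1.69. Apart from WT series 3, Fft3-GFP was the lowest array at each of the 11 elements, from 2.15 at Tf2-2 to 2.99 at Tf2-9. Because copies share sequence, a probe reads all near-identical elements together.

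Levels of larger regions were compared next. Of 23 regions, 0 passed an exact 2-sided permutation test of 3 WT against 2 fft3∆ arrays (0% called), which cannot go below 0.2, or 0.383 after adjustment over the regions. Both fft3∆ arrays lay above all 3 WT arrays in 12 regions and below them in 0, where 8.89% and 7.33% of all windows did so. WT series 3 was the lowest array in 22 of the 23 regions. Leaving out WT series 3 could not lower the count of regions with both fft3∆ arrays above. Against WT series 1 and 2 alone it was 12, which is no separate support. Within a series, fft3∆ was above WT in 16 regions in series 2, in 23 in series 3, and in both in 16 (18.6% of windows). In series 3 the difference includes the low values of WT series 3.

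**Figure D2:**
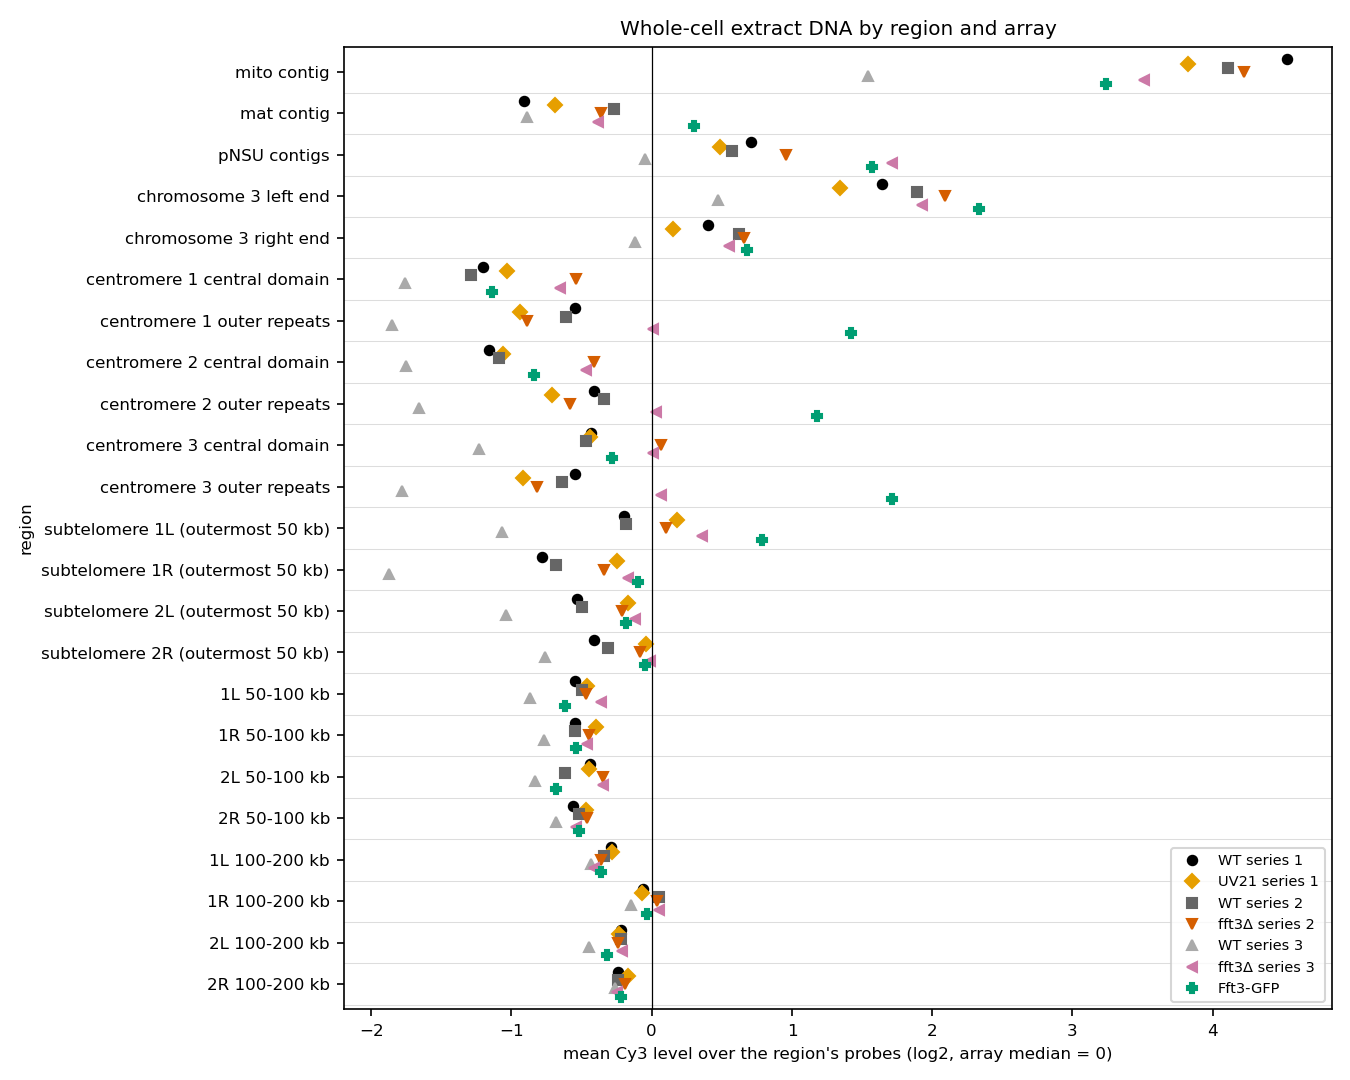
Mean Cy3 level (log2, array median at 0) over the probes of each of 23 regions, with 1 symbol an array. WT series 3 is leftmost in 22 regions, the fft3∆ arrays lead in the central domains, and Fft3-GFP lies far to the right of the others in the outer repeats.

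The central domains of the centromeres were higher on both fft3∆ arrays in both series, as levels without a test that could pass. These domains were taken as the probes between the innermost tRNA gene clusters. For centromere 1 (41 probes) the level was -1.20, -1.29 and -1.76 on WT series 1, 2 and 3 (-1.42 ± 0.30, SD, n = 3), and -0.54 and -0.65 on fft3∆. For centromere 2 (34 probes) it was -1.16, -1.09 and -1.75 on WT and -0.41 and -0.47 on fft3∆. For centromere 3 (35 probes) it was -0.43, -0.47 and -1.23 on WT and 0.07 and 0.01 on fft3∆. The groups did not overlap at any of the 3 centromeres. A repeat mark in the probe name is carried by 37 of 41, 11 of 34 and 29 of 35 of these probes. Such a probe may read more than 1 centromere, so the 3 are not fully separate. Without marked probes the fft3∆ minus WT difference was 0.59, 0.94 and 0.97 at centromeres 1, 2 and 3. Over the 110 probes together, fft3∆ exceeded WT by 0.66 in series 2 and by 1.20 in series 3, and UV21 exceeded WT of its series by 0.09. The UV21 value depends on the signal read: the scanner software's processed signal was over 2 times off the background-subtracted one at 424 UV21 probes, all within 10 kb of a centromere, and at none on the other arrays. With the processed signal, UV21 exceeded WT of its series by 1.66 in the central domains. Fft3-GFP was at -1.14, -0.84 and -0.28 at centromeres 1, 2 and 3, nearer to WT series 1 and 2 than to fft3∆.

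Windows of these same central domains were among those with the smallest p that missed the threshold. They hold the same probes on the same arrays as the levels above, so they are no separate support. Of the 5 windows with the smallest such p, seen after the fit, 4 lay there, from 3766001 and 3774001 on chromosome 1, 1626001 on chromosome 2 and 1098001 on chromosome 3. The first of these was at -1.61, -1.28 and -1.67 on WT and -0.60 and -0.72 on fft3∆, a difference of 0.86 (SE 0.17, adjusted p 0.892 by limma). The fifth held mei4, a transcription factor gene of meiosis, at 0.11, 0.03 and -0.23 on WT and 0.73 and 0.84 on fft3∆, with UV21 at 0.56 and Fft3-GFP at 0.54.

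The outer repeats behaved differently from the central domains. At centromere 1 (59 probes) the level was -0.55, -0.61 and -1.85 on WT series 1, 2 and 3, -0.89 and 0.01 on fft3∆, -0.94 on UV21 and 1.42 on Fft3-GFP. The fft3∆ array was below WT in series 2 and above it in series 3 at all 3 centromeres: over the 186 probes together the differences were -0.22 and 1.81. UV21 differed from WT of its series by -0.36, and by 1.20 with the processed signal, so its direction at the centromeres is not settled. The fft3∆ and WT arrays overlapped, and the sign of the fft3∆ difference turned at centromeres 1 and 3 when Fft3-GFP was counted with the WT arrays.

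Fft3-GFP had the highest outer repeats of all arrays. It stood at 1.42, 1.18 and 1.71 at centromeres 1, 2 and 3, where the next array, fft3∆ series 3, was at 0.01, 0.03 and 0.07. A search for the opposite of a missing stretch, 3 or more neighbouring probes of 1 array at least 2 above all others, gave 8 stretches, all on Fft3-GFP. They held 29 probes (0.0698% of all probes), and 29 of the 29 lay in the centromeres. All 29 carry the repeat mark. A probe may thus read copies at several centromeres, so the 8 stretches cannot be taken as separate places. Their means were 2.19 to 2.91, and the highest other array had a mean of at most 0.49. They overlapped 24 annotated long non-coding RNAs, among them nam5 (SPNCRNA.230), and no protein-coding gene.

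**Figure D3:**
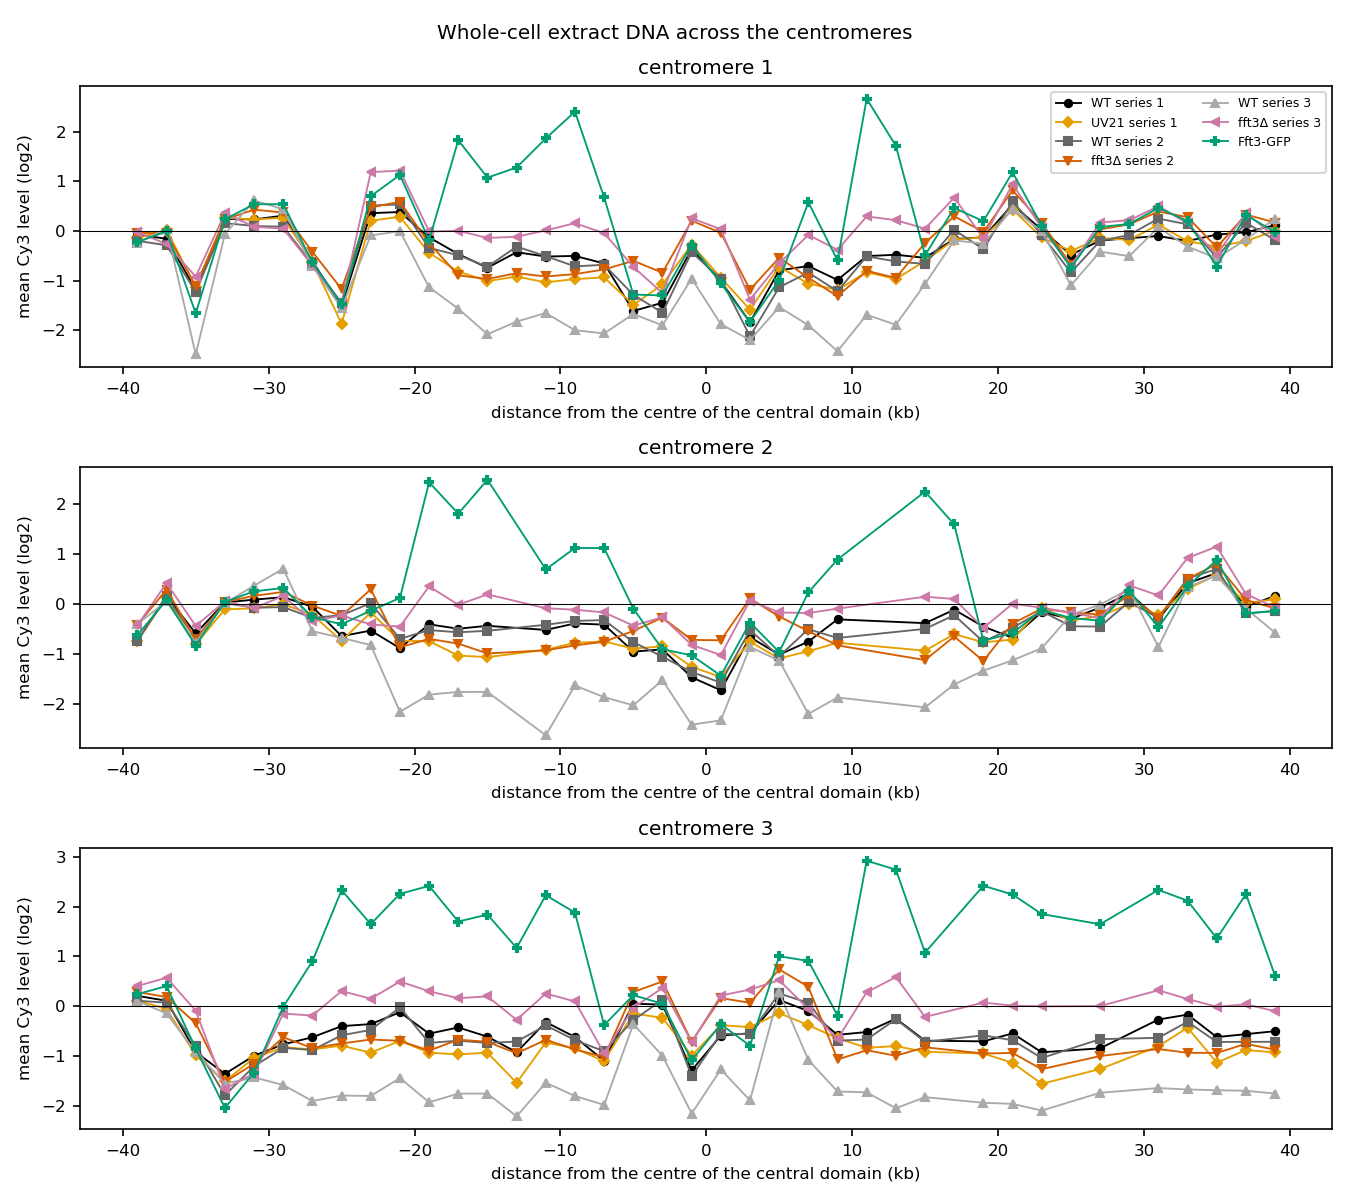
Mean Cy3 level (log2, bins of 2 kb) against the distance (kb) from the centre of each central domain, for the 7 arrays. Fft3-GFP rises to either side of the centre, over the outer repeats, and is lower within the central domain, where both fft3∆ arrays lie above WT series 1 and 2 in most bins but not at the edges of centromere 3.

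With 1 array and the spread of WT including series 3, limma called 0 of 6277 windows in Fft3-GFP against WT (0% called), with a smallest adjusted p of 0.446 and 106 higher and 33 lower windows at an unadjusted p under 0.05. Without WT series 3 it called 54 higher and 8 lower (0.988% of windows). Of the 54, 27 were in outer repeats (8, 6 and 13 at centromeres 1, 2 and 3), and 24 in the outermost 50 kb of chromosomes 1 and 2 (12, 8, 2 and 2 at 1L, 1R, 2L and 2R). The outer repeat windows differed by 1.34 to 3.52 and the subtelomeric ones by 0.90 to 2.30. Outer repeats were defined by repeat-marked probes, so their windows may share signal and are not separate places. The lone Fft3-GFP array is assumed to vary like the other groups. Without WT series 3, the WT arrays and Fft3-GFP were read on different scanner models, so scanner, strain and treatment cannot be told apart in these calls. Of the 8 lower windows, 6 overlapped Tf2 elements, and their differences ran from -1.49 to -0.96.

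Subtelomeres were lower on each of the 3 WT arrays than on every other array. Over the outermost 50 kb of both ends of chromosomes 1 and 2 (589 probes), the mean level was -0.48, -0.41 and -1.20 on WT series 1, 2 and 3. It was -0.13 and 0.02 on fft3∆ series 2 and 3, -0.06 on UV21 and 0.14 on Fft3-GFP. The WT arrays did not overlap with the rest. The share of all windows with this split is not given here, and WT series 3 was the lowest array in 22 of the 23 regions. The within-series differences were 0.29 for fft3∆ in series 2, 1.23 for fft3∆ in series 3 and 0.42 for UV21 in series 1 (0.41 with the processed signal).

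Each of the 4 ends showed this order. At 1R (159 probes) the level was -0.78, -0.68 and -1.87 on WT, -0.34 and -0.17 on fft3∆, -0.25 on UV21 and -0.10 on Fft3-GFP. At 2R (156 probes), where the spread was smallest, it was -0.41, -0.31 and -0.76 on WT (-0.49 ± 0.24, SD, n = 3), -0.08 and -0.01 on fft3∆, -0.04 on UV21 and -0.05 on Fft3-GFP. The fft3∆ minus WT difference was 0.71, 0.86, 0.53 and 0.45 at 1L, 1R, 2L and 2R, and 0.42, 0.48, 0.35 and 0.32 without WT series 3. Over the 4 zones from 50 to 100 kb together it was smaller, at 0.11 in series 2 and 0.36 in series 3, and that of UV21 was 0.08. At 2L it did not fade in series 2, with 0.30 in the outermost 50 kb and 0.27 from 50 to 100 kb. The bins centred 92.5, 97.5 and 102.5 kb from that end differed by 0.61, 1.36 and 0.76 in series 2. UV21 differed from WT of its series there by -0.44, -0.91 and -0.45. The WT arrays themselves were split in these bins, with WT series 1 near fft3∆. At 97.5 kb WT series 1 was at 1.25 and fft3∆ at 1.72 and 1.33. There WT series 2, WT series 3, UV21 and Fft3-GFP were at 0.36, 0.74, 0.34 and 0.79. At 92.5 kb WT series 1 (0.118) was above both fft3∆ arrays (0.045 and 0.006). Over the 4 zones from 100 to 200 kb the level was within -0.32 to -0.19 on all 7 arrays.

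**Figure D4:**
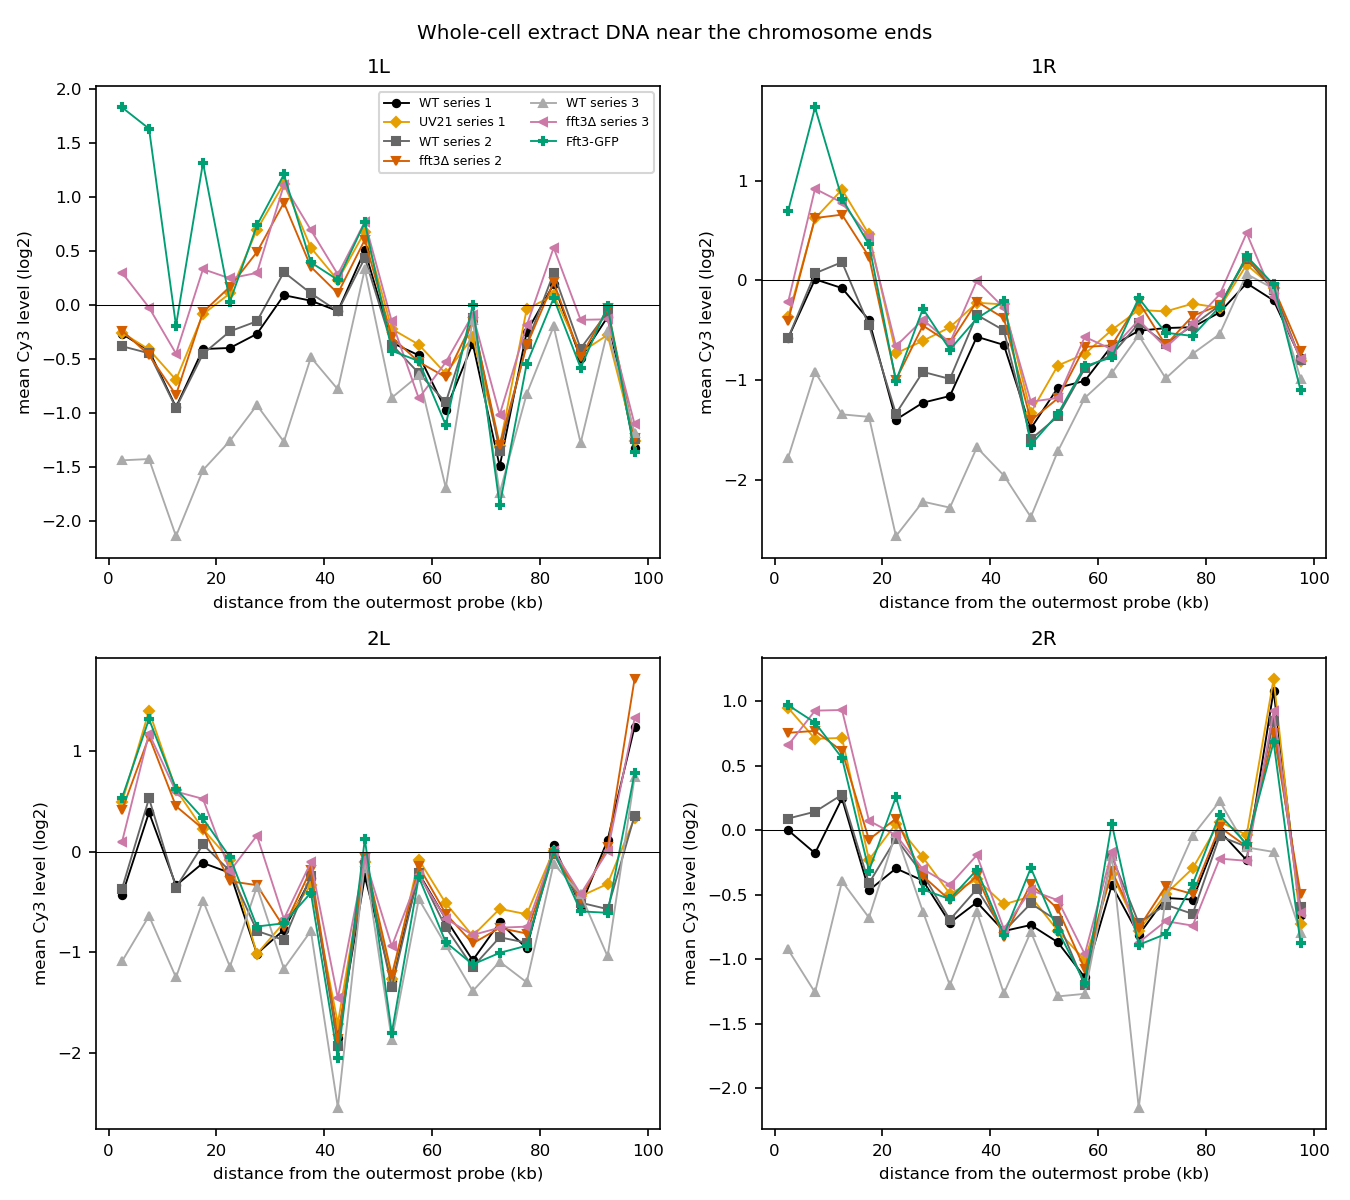
Mean Cy3 level (log2, bins of 5 kb) against the distance (kb) from the outermost probe of each end of chromosomes 1 and 2, for the 7 arrays. Over the outermost 50 kb the fft3∆, UV21 and Fft3-GFP arrays average -0.13 to 0.14 and the WT arrays -1.20 to -0.41. Farther in the arrays mostly come together, but not in the bins centred at 92.5 and 97.5 kb of 2L, and WT series 3 stays low in some bins.

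Within the ends the differences were uneven. At 1L the outermost 5 kb, which hold the telomere-linked helicase gene tlh1, were at -0.27, -0.38 and -1.44 on WT, -0.24 and 0.30 on fft3∆ and -0.26 on UV21, and Fft3-GFP stood out at 1.83. In the bin centred 32.5 kb from that end the level was 0.09, 0.31 and -1.26 on WT, 0.95 and 1.11 on fft3∆, 1.12 on UV21 and 1.21 on Fft3-GFP. In the outermost bin UV21 and fft3∆ series 2 were thus near WT series 1 and 2 while fft3∆ series 3 was above them, and in the second bin UV21 and both fft3∆ arrays were above. The gene tlh1 itself (19 probes) was at -0.30, -0.38 and -1.42 on WT and -0.37 and 0.23 on fft3∆, and it did not pass the test.

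No subtelomeric gene passed the gene test with all 7 arrays. Without WT series 3 the test called 11 genes higher in fft3∆, besides fft3 lower (12 of 4952, 0.242% of genes). Of the 11, 10 lay mostly in the outermost 50 kb and 1, SPAC977.14C, in the zone of 50 to 100 kb at 1L. The 10 were SPAC977.04, ftm1 and SPAC212.06C at 1L, ftm4, SPAC750.01 and SPAC750.03C at 1R, SPBC1348.04 and ftm5 at 2L, and SPBCPT2R1.01C and SPBPB2B2.16C at 2R. Many of them belong to families with near-identical copies at several ends, so their probes may share signal. The genes at 2L rest on a less certain placement, described with the processing below.

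The gene ftm1 (5 probes) was at -0.01, 0.13 and -1.26 on WT, 1.0 and 1.16 on fft3∆, 1.12 on UV21 and 1.01 on Fft3-GFP. Its difference was 1.02 (SE 0.15, adjusted p 0.0175 by limma) without WT series 3. SPBCPT2R1.01C (3 probes) was at 0.42, 0.49 and -0.50 on WT, 1.63 and 1.47 on fft3∆, 1.80 on UV21 and 2.19 on Fft3-GFP, a difference of 1.09 (SE 0.15, adjusted p 0.0152). SPAC750.01 (4 probes) had the largest difference of the 11, 1.30 (SE 0.19, adjusted p 0.0175), with levels of -0.99, -0.38 and -1.54 on WT and 0.55 and 0.68 on fft3∆. At each of these 3 genes the UV21 array lay above the 3 WT arrays. UV21 against WT gave 0 of 6277 windows at an adjusted p under 0.05 by limma (0% called), and 34 higher and 18 lower at an unadjusted p under 0.05. With the processed signal 0 were called as well, with a smallest adjusted p of 0.0702 and 98 higher and 17 lower at an unadjusted p under 0.05.

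**Figure D5:**
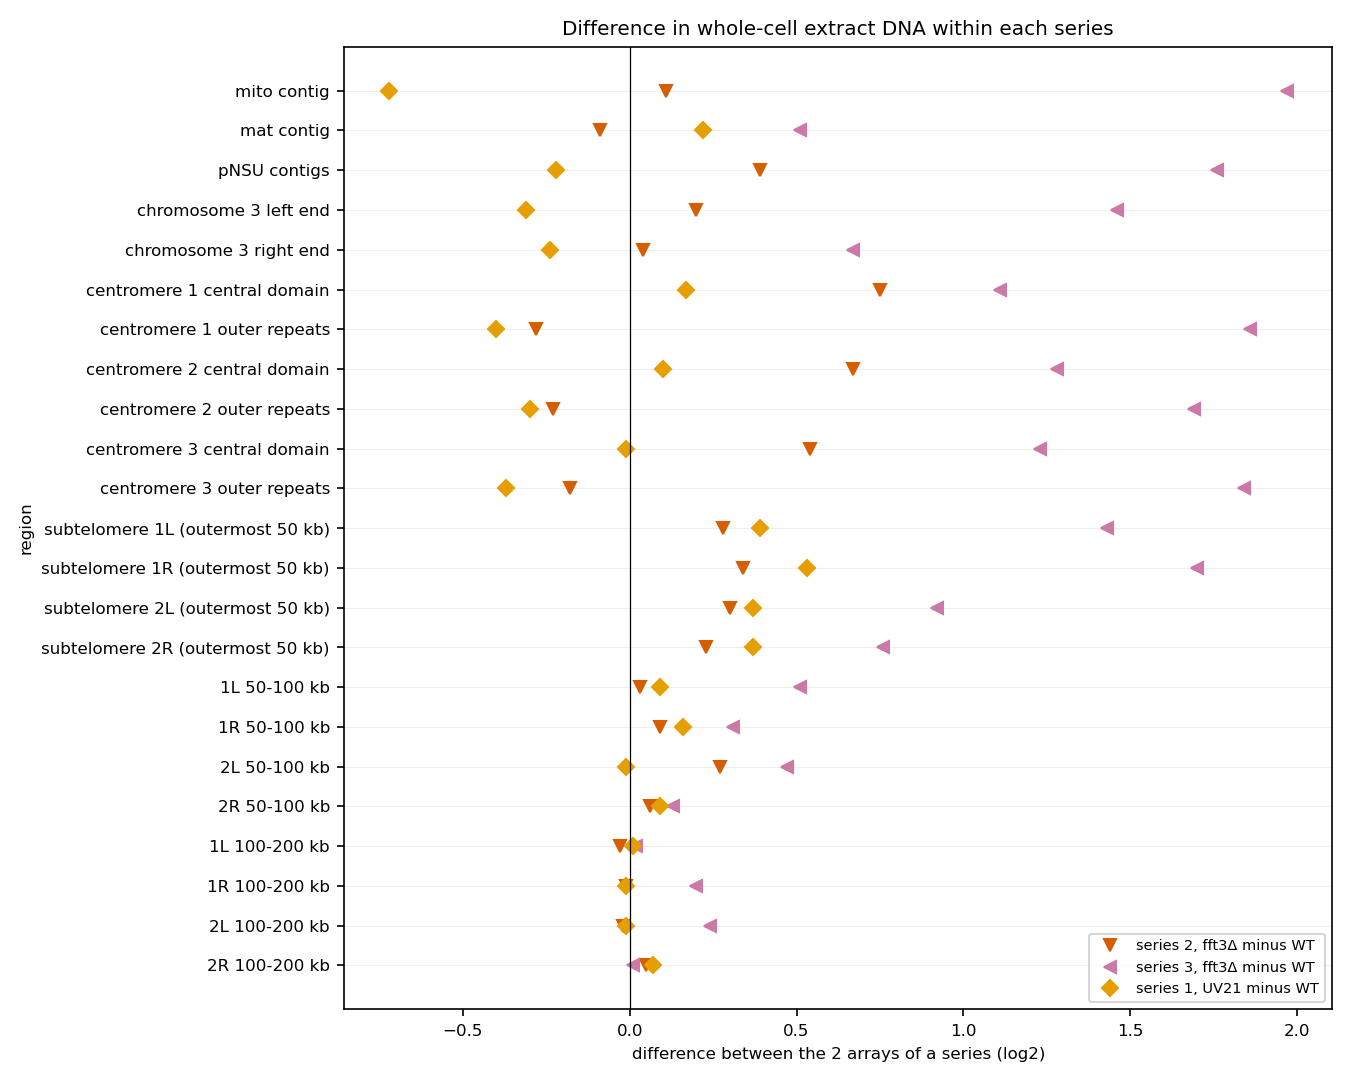
Difference in Cy3 level (log2) between the 2 arrays of a series for each of 23 regions. UV21 and fft3∆ series 2 are both to the right of 0 at the 4 subtelomeres, at the central domains fft3∆ series 2 is at 0.54 to 0.75 and UV21, on the background-subtracted signal, at -0.01 to 0.17, and series 3 differences are the largest where WT series 3 is low.

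The pNSU contigs (129 probes) were at 0.71, 0.57 and -0.05 on WT, 0.96 and 1.71 on fft3∆, 0.49 on UV21 and 1.57 on Fft3-GFP. The fft3∆ arrays did not overlap with WT, by 0.92 on average and by 0.69 without WT series 3. The 27 probes of pNSU21 and the 19 of pNSU65 differed most within series 2, by 0.70 and 0.75, while pNSU68, with 2 probes, differed by -0.43. UV21 was below WT of its series on each of the 9 contigs, by -0.31 to -0.09, unlike at the subtelomeres of chromosomes 1 and 2.

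At the ends of chromosome 3 the values moved with WT series 3 as well. The left 25 kb (59 probes) were at 1.64, 1.89 and 0.47 on WT, 2.09 and 1.93 on fft3∆, 1.34 on UV21 and 2.33 on Fft3-GFP. Apart from WT series 3, UV21 was the lowest array there and Fft3-GFP the highest. Within series 2 fft3∆ exceeded WT by 0.20, and without WT series 3 the mean difference was 0.25. The right 25 kb (56 probes) were at 0.40, 0.62 and -0.12 on WT, 0.66 and 0.55 on fft3∆, 0.15 on UV21 and 0.68 on Fft3-GFP, and WT and fft3∆ overlapped there. On WT series 3, 12 probes of the left end and 6 of the right were saturated.

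Mitochondrial DNA (61 probes) had a level of 4.53 on WT series 1, 4.11 on WT series 2, 4.22 on fft3∆ series 2, 3.51 on fft3∆ series 3, 3.82 on UV21 and 3.24 on Fft3-GFP. On WT series 3 it was 1.54, but 58 of the 61 probes were saturated there, so this value is a lower bound. The sign of the fft3∆ difference depended on that array: it was 0.47 with WT series 3 and -0.46 without it. The arrays other than WT series 3 spanned 2.44-fold, and UV21 differed from WT of its series by -0.72. At the 3 probes that were not saturated on WT series 3, the level was 1.35 on that array, 1.44 on Fft3-GFP and 2.47 to 3.37 on the other 5.

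The mat contig as a whole (110 probes) was at -0.91, -0.27 and -0.89 on WT, -0.36 and -0.38 on fft3∆, -0.69 on UV21 and 0.30 on Fft3-GFP. WT and fft3∆ overlapped. The values of WT series 1, UV21 and fft3∆ series 3 include the 11 missing probes, which WT series 3 does not lack. The fft3∆ minus WT difference was 0.32, and 0.52 with dim probes left out.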

How the data were processed

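Whole-cell extract and ChIP DNA were amplified by random-primed PCR and hybridised together, per the labels' protocols. The deposited scanner files were written by Agilent Feature Extraction 12.0.3.1, 10.7.3.1 (fft3∆ series 2) or 11.5.1.1 (both series 3 arrays), per the file headers, and hold each spot's background-subtracted Cy3 intensity. From it log2 values were taken relative to each array's median. The members and lists were chosen with earlier results of these data known.

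Windows of 2 kb (at least 3 probes) and protein-coding genes of ASM294v3 (at least 2 probes, 4952 of 5113) were fitted with limma 3.58.1 in R 4.3.3 on 7 arrays with group as the only term and Benjamini-Hochberg adjustment. Regions were tested with exact permutations over arrays. The rule for named genes took those that a missing or gain stretch overlaps, fft3, ura4, list members that passed the gene fit, and up to 10 called windows in each direction with their genes. Other list members, mei4 and the genes called without WT series 3 fall outside it and were named after their values were seen. A bound ("at least") sets dim probes to the lowest signal well above background on their array. Gene positions rest on 1 shift per arm (62 of 63 segments of 200 kb within 300 bp). Normexp used the median signal, since the mean signal is not in these files. Python 3.11.15 (numpy 2.4.6, pandas 2.3.3, scipy 1.17.1) computed the rest, and the fit was tested on simulated data.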

Additional observations from a re-analysis of the deposited data

How the results depend on the processing

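The fft3 stretch and the cao1 and cbm1 stretch were found under all settings tried, the mat stretch under all but a gap of 5 and median signal minus local background. The 14 stretches became 8 with a gap of 5 and 9 with runs of 5 probes. Called fft3∆ windows (2) numbered 0 with normexp, 1 with median signal minus local background, 0 without dim probes, 1 with 5 kb windows, and 1 to 5 when 1 array was left out. For genes (1, fft3) these were 4 with normexp, all higher and without fft3 (-1.60), 0 without dim probes and 1 to 12. UV21 windows (0) ranged from 0 to 3, the 3 at cao1 and cbm1 without WT series 1. Fft3-GFP windows (0) numbered 42 with normexp, which moved the median window to -0.12, and 0 to 62. Dim probes carry the losses, so their removal empties these calls by construction; the cause of the normexp counts was not tested. Regions with both fft3∆ arrays above all WT arrays (12) numbered 6 with Fft3-GFP counted as WT. The sign of the region difference turned in 5 of 23 regions with normexp, 3 with quantile normalization and 3 with medians over probes, all beyond 50 kb from an end. The ura4 difference ranged from -0.03 without fft3∆ series 3 to 1.5 without fft3∆ series 2. Of 519 comparisons of single regions or features with an alternative, 485 kept their call or moved by less than the spread between WT arrays. Of these 485, 4 changed sign, as did 10 that moved by more and ura4. The spread includes WT series 3 and is wide where that array is low, so large moves can count among the 485. At the chromosome 3 left end (WT SD 0.76) a move from 0.68 to 0.25 without WT series 3 did so.

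The series number as a replicate block, with 1 residual degree of freedom, gave 6 windows and 16 genes; the 4 added windows lie at cao1 and cbm1, and 11 of the 13 genes higher are those higher without WT series 3. Windows of the 2 pairs deviated in opposite senses (r = -0.389 over 6277), so this check did not pair the arrays. The crossed pairing, chosen after seeing the data, gave 6 windows and 3 genes, 0 of them higher. Slide as a random block could not be estimated and was not run. Saturation limits WT series 3, and the low signal over background limits how deep a loss can be read on the series 1 arrays.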
